A study of Mus musculus with 4 samples.

Results

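Cytosolic ribosomal protein genes encode the protein parts of the cytoplasmic ribosome, and their messenger RNAs (mRNAs) were compared between Med16 KO and Med16 fl/fl erythroid cells. The genes were chosen by symbol alone: Rpl or Rps, an optional p, a number and an optional letter and number. The rule took 88 of the 56691 genes in the deposited tables, 53 of the large and 35 of the small subunit. Of these, 76 are main forms and 12 are paralogs or numbered copies of a main form. The filter on low counts left 81 of the 88, and the other 7 are described below by their counts. RNA came from Ter119+ bone marrow cells of the mouse, with 2 libraries labelled Med16 KO and 2 labelled Med16 fl/fl, the floxed controls, all carrying the time label 3 weeks. Ter119 is a surface antigen of the erythroid lineage, and the protein of Med16 belongs to Mediator, which joins transcription factors to RNA polymerase II. The labels name no Cre line, deletion schedule, animal age, sex or pooling, so whether the libraries of a genotype came from separate mice is not known. The p-values below therefore take in only the library-to-library spread, and that spread may be technical.

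Each ribosome joins a small subunit, which decodes the mRNA, to a large subunit, which forms the peptide bond and carries the exit tunnel. Most ribosomal proteins are needed in equimolar amounts. Many mRNAs of ribosomal proteins begin with a terminal oligopyrimidine (TOP) tract. This is a run of C and T at the start of the transcript through which mTOR and Larp1 control translation. Red cell precursors are known to be sensitive to ribosomal protein supply: in people, inherited loss of 1 copy of any of several of these genes causes Diamond-Blackfan anaemia, a failure of red cell production.

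The start regions of genes that the results below turn on are printed here to show which of them carry such a run of pyrimidines. They come from the RefSeq promoter table of build GRCm38.p6, which matched 63 of the 88 genes. Each window holds 15 bases before the annotated start and 15 from it, on the transcribed strand, and capitals mark the letters CTTTCC. These letters were chosen after the sequences had been seen. The first 6 windows belong to genes called higher in Med16 KO cells, the seventh to Rps10, which was called lower, and the last 2 to genes called higher that lack the 6 letters. Lacking them does not mean lacking pyrimidines, as the window of Rps9 is 73.3% C and T. A gene with several annotated starts was counted if any of its windows held CTTTCC. The other windows of Rpl35a, not printed, lack it and are 43.3% C and T.
Rpl35a, chr16:33056467-33056496, plus strand: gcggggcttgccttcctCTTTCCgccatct
Rps27, chr3:90213634-90213663, minus strand: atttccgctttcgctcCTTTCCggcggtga
Rpl18, chr7:45718056-45718085, plus strand: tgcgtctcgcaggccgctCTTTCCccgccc
Rpl28, chr7:4792950-4792979, plus strand: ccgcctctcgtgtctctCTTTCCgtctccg
Rpl15, chr14:18270972-18271001, minus strand: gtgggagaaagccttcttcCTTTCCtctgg
Rpl35, chr2:39005117-39005146, minus strand: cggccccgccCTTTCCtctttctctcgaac
Rps10, chr17:27635230-27635259, minus strand: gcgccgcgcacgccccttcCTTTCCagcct
Rps9, chr7:3704026-3704055, plus strand: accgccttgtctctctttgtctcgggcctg
Rps15, chr10:80292416-80292445, plus strand: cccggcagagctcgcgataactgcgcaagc

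On that strand, CTTTCC stood in the window of 10 of the 63 genes (15.9%), against 451 of all 27025 genes in the table (1.67%). The median share of C and T in the window was 60% for the ribosomal protein genes and 50% for all genes, and it varied among the windows printed, at 83.3% in that of Rpl28 and 46.7% in that of Rps15. A second string, CCGGAAG, the core that ETS factors recognise, was searched on both strands in the 300 bases from 250 before to 50 after the start. It stood in 25 of the 63 genes (39.7%), in 26 of 69 mitochondrial ribosomal protein genes (37.7%) and in 9.93% of all genes. Both strings can share an end base. Of the 9 tested genes with CTTTCC, 6 were called higher, with a median log2 fold change of 0.28, and of the 49 without it, 18 were called higher, with a median of 0.16. With CCGGAAG, 8 of 24 tested genes were called higher, with a median of 0.16, and without it 16 of 34, with a median of 0.18. This string, too, was chosen after the sequences had been seen, and these matches describe letters and are not evidence of a binding site. Over all 81 tested ribosomal protein genes, 40.7% were called higher, with a median log2 fold change of 0.17. Over all 13052 genes tested, 8.5% were called higher, with a median of 0.02, and closer backgrounds are given below. Whether either string goes along with the change was not tested.

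The libraries held 6948951 and 6749196 counts assigned to genes for Med16 KO, and 7216333 and 7048208 for Med16 fl/fl. Med16 itself had 16 and 30 counts in KO libraries, against 164 and 127 in fl/fl libraries. Sums of marker genes, in TMM-scaled CPM (counts divided by library size in units of 1000000), gave 162264 and 166403 for 7 erythroid genes in KO libraries, against 168540 and 162003 in fl/fl libraries. Marker genes of neutrophils summed to 17423 and 17829 CPM in KO libraries, against 12608 and 12455 CPM in fl/fl libraries, and all 7 were called higher. Megakaryocyte markers summed to 137 and 141 CPM in KO libraries, against 56.8 and 48.7 CPM in fl/fl libraries, with 3 of the 4 tested called higher and Gp1bb at 0 in every library. Of the early erythroid progenitor markers 2 of 4 were called higher, at 197 and 148 CPM in sum in KO libraries, against 139 and 141 CPM in fl/fl libraries. Stromal and endothelial markers summed to 222 and 276 CPM in KO libraries, against 134 and 138 CPM in fl/fl libraries, with 2 of the 4 tested called higher. Monocyte markers summed to 585 and 587 CPM in KO libraries, against 481 and 490 CPM in fl/fl libraries, with 2 of 6 called higher and 1 lower. B cell markers summed to 162 and 173 CPM in KO libraries, against 154 and 156 CPM in fl/fl libraries, with 1 of 6 called higher, and T cell markers to 12.6 and 10.2 CPM in KO libraries, against 12.2 and 10.01 CPM in fl/fl libraries, with 0 of 3 called. The part of these marker differences in the results below was not tested. In bulk RNA, a change in the number of cells of a type and a change in RNA per cell cannot be told apart.

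Ribosomal protein mRNAs took a larger share of the counts in Med16 KO cells. The 88 genes together held 3.06% and 3.06% of assigned counts in the KO libraries, against 2.68% and 2.60% in the fl/fl libraries. The means were 3.06% ± 0.0049 for KO and 2.64% ± 0.0610 for fl/fl (SD, n = 2 each), a difference of 0.421 percentage points. Both KO libraries lay above both fl/fl libraries, and the exact two-sided permutation p was 0.333, the smallest that 2 libraries against 2 can give. Globin genes took 16.5% and 17.3% of counts in KO libraries, against 16.2% and 16.2% in fl/fl libraries. Reads that aligned to more than 1 place were not counted, and their part in the globin share was not tested. Counted without globins, the ribosomal protein share was 3.66% and 3.71% in KO libraries, against 3.20% and 3.10% in fl/fl libraries.

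Gene by gene, edgeR's quasi-likelihood test called 33 of the 81 tested genes higher in Med16 KO cells and 1, Rps10, lower, at an adjusted p under 0.05. Among all 13052 genes tested, 8.5% were called higher and 9.89% lower. Abundant genes are called more often, so a closer background is the 1679 genes with a mean of at least 100 CPM, of which 20.7% were called higher and 38.7% lower. Of the 70 ribosomal protein genes at that level, 32 were called higher and 0 lower. Most of these genes are also short. Of the 86 other genes at that level with a transcript under 1000 bases, 43% were called higher and 18.6% lower. In the same class, 24 of 50 ribosomal protein genes were called higher and 0 lower. The median log2 fold change was 0.17 over the 81 genes, with quartiles of 0.09 and 0.23, against 0.02 over all genes tested and -0.11 over the abundant ones. In 52 genes both KO libraries lay above both fl/fl libraries, in 5 they lay below and in 24 the genotypes overlapped. Over all genes tested, 29.4% lay above and 28.2% below without overlap, and over the abundant ones 31.5% and 52.5%. A fold change was positive in 72 genes and negative in 9. The changes were small: 77 genes with at least 200 counts in every library had a median log2 fold change of 0.16, while KO 2 over KO 1 had a median log2 ratio of -0.01 and an SD of 0.20 over the same genes, and fl/fl 2 over fl/fl 1 a median of -0.04 and an SD of 0.13. Leaving out fl/fl replicate 1 or fl/fl replicate 2 brought the number called higher down, among these genes and over all genes tested alike. It left the median log2 fold change of the ribosomal protein genes at no less than 0.13. Scaled by library size alone, without TMM, 41 were called higher and 1 lower, while over all genes tested 10.5% were called higher and 8.08% lower, so that higher calls made up 56.4% of all calls instead of 46.2%.

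**Figure D1:**
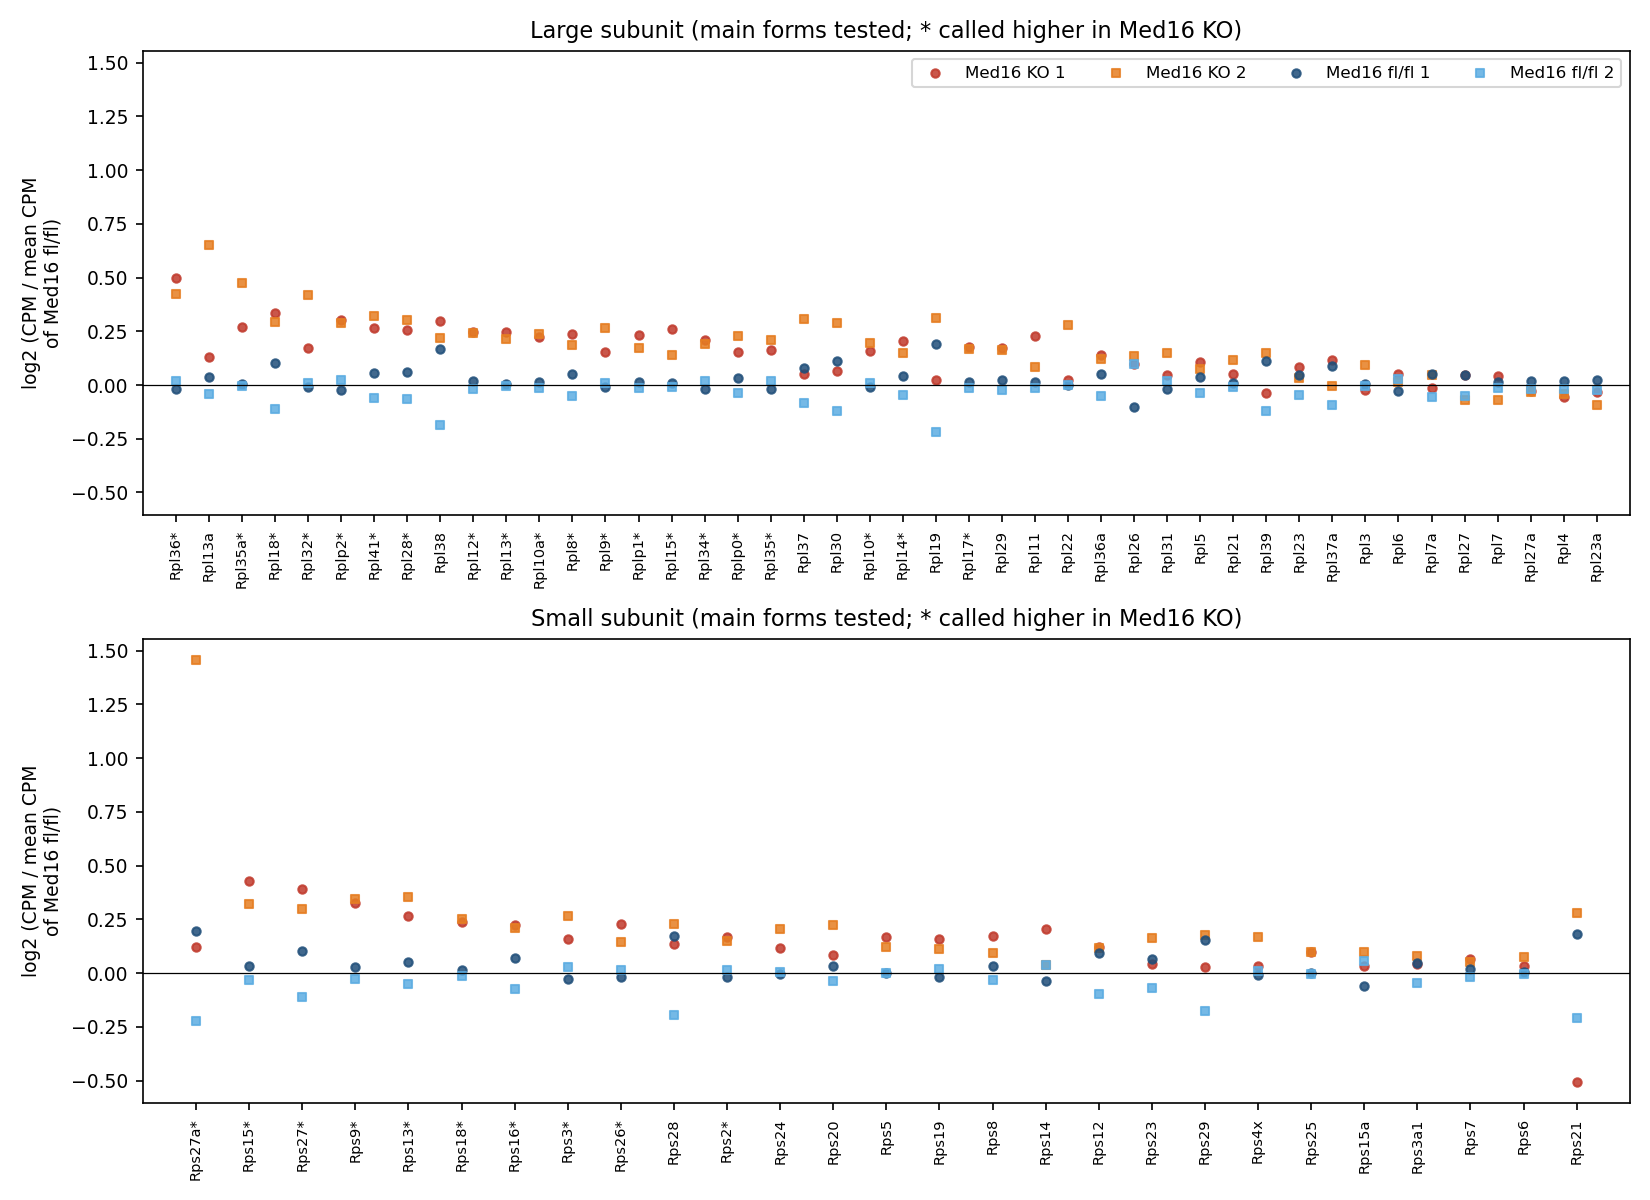
Each point is 1 library's CPM divided by the mean CPM of the Med16 fl/fl libraries, on a log2 axis, for the tested main forms of the large subunit (top) and small subunit (bottom), sorted by fold change. KO libraries are red and orange, fl/fl libraries dark and light blue, asterisks mark genes called higher in Med16 KO, and Rps10, for its low counts, and a few other genes are not shown. Most KO points lie above 0, and Rps27a stands apart through KO 2 alone.

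The largest rises without overlap lay in Rps4l and in a group of short main forms. Rps4l, a copy of the X-linked small subunit gene Rps4x that GENCODE M21 lists as a transcribed processed pseudogene, had 75 and 51 counts in KO libraries, against 21 and 21 in fl/fl libraries, a log2 fold change of 1.58 ± 0.41 (SE, adjusted p = 0.0127). Reads from such a copy can be confused with those of its parent. The call was lost without fl/fl replicate 1 or without fl/fl replicate 2, at adjusted p of 0.105 and 0.0947, and DESeq2 gave no adjusted p. Among main forms, Rpl36 of the large subunit had 191 and 181 CPM in KO libraries, against 134 and 137 CPM in fl/fl libraries, a log2 fold change of 0.46 ± 0.08 (adjusted p = 0.000467). Rps15, a protein of the small subunit head that is required for export of the precursor subunit from the nucleus, had 361 and 335 CPM in KO libraries, against 274 and 262 CPM in fl/fl libraries, at 0.38 ± 0.06 (adjusted p = 0.000428). Neither gene's genotypes overlapped, and both calls were lost when GC content was fitted as an offset, with log2 fold changes of 0.18 for Rpl36 and 0.16 for Rps15.

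Rps9, a core protein of the small subunit that binds 18S rRNA, had the smallest adjusted p of the family. It measured 661 and 669 CPM in KO libraries, against 537 and 518 CPM in fl/fl libraries, a log2 fold change of 0.34 ± 0.05 (adjusted p = 0.000112). It was called in every alternative tried except that with a fixed coefficient of variation of 0.2. Among the 10 largest rises without overlap were also Rpl35a, Rps27, Rpl18, Rps13 and Rpl32, with log2 fold changes between 0.30 and 0.38. Rpl35a had 112 and 129 CPM in KO libraries, against 93.1 and 92.5 CPM in fl/fl libraries, and a log2 fold change of 0.38 ± 0.10 (adjusted p = 0.013). Rps27, a zinc-binding small subunit protein, had 197 and 185 CPM in KO libraries, against 161 and 139 CPM in fl/fl libraries, at 0.35 ± 0.08 (adjusted p = 0.0087). The genotypes were apart in each of these genes, and KO was 1.23 to 1.30 times fl/fl in these 5. The calls of Rps27, Rpl18, Rps13 and Rpl35a were lost without fl/fl replicate 2, that of Rpl35a also without fl/fl replicate 1, and that of Rpl32 without KO replicate 2.

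The 5 most abundant genes by mean CPM were split: Rplp0, which is described with the stalk below, Rpl41 and Rpl13 rose, while Rpl4 and Rps3a1 were not called. Rpl41, the smallest ribosomal protein, had 847 and 880 CPM in KO libraries, against 733 and 677 CPM in fl/fl libraries, a log2 fold change of 0.29 ± 0.05 (adjusted p = 0.000449). Rpl13 had 816 and 799 CPM in KO libraries, against 689 and 687 CPM in fl/fl libraries, at 0.23 ± 0.04 (adjusted p = 0.0014). These genes were called higher without overlap, but both calls were lost with the GC content offset, where the log2 fold change was 0.13 for Rpl41 and 0.029 for Rpl13. Rpl4, which lines the exit tunnel, had 942 and 950 CPM in KO libraries, against 992 and 967 CPM in fl/fl libraries, a log2 fold change of -0.05 ± 0.04 (adjusted p = 0.445). Rps3a1, a small subunit protein near the mRNA exit, had 851 and 872 CPM in KO libraries, against 853 and 801 CPM in fl/fl libraries, at 0.06 ± 0.05 (adjusted p = 0.418). On the TMM scale Rpl4 was lower in both KO libraries than in both fl/fl libraries, while its log2 fold change was 0.0036 when scaled by library size alone, and Rps3a1 overlapped. Set per kilobase of the principal M21 transcript, the level had a median of 422 CPM per kilobase in KO cells and 373 in fl/fl cells over 75 main forms. The highest were Rplp1 at 1586 in KO and 1377 in fl/fl, and Rpl41 at 1484 in KO and 1211 in fl/fl.

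The acidic stalk of the large subunit, which recruits the GTPases of elongation, rose in all 3 of its genes. Of all genes with a mean of at least 100 CPM, 20.7% were called higher. Among the other genes at that level with a transcript under 1000 bases, 43% were. Rplp0, which anchors the stalk to the ribosome, had 1800 and 1895 CPM in KO libraries, against 1655 and 1577 CPM in fl/fl libraries, a log2 fold change of 0.19 ± 0.04 (adjusted p = 0.0023). Rplp1 had 808 and 775 CPM in KO libraries, against 693 and 681 CPM in fl/fl libraries, at 0.20 ± 0.04 (adjusted p = 0.0045). Rplp2, whose protein pairs with that of Rplp1, had 327 and 324 CPM in KO libraries, against 260 and 269 CPM in fl/fl libraries, at 0.30 ± 0.06 (adjusted p = 0.0021). No genotypes overlapped in these genes, while KO lay above fl/fl without overlap in 31.5% of all genes with at least 100 CPM. Set against the rest of the large subunit, stalk counts stood at a log2 ratio of -2.37 and -2.35 in KO libraries, against -2.42 and -2.42 in fl/fl libraries, a difference of 0.06 with an exact two-sided permutation p of 0.333, the smallest possible. All 3 calls were lost with the GC content offset, where the log2 fold change was 0.11 for Rplp0, -0.01 for Rplp1 and 0.15 for Rplp2. The call of Rplp0 was also lost with the length offset, that of Rplp1 without fl/fl replicate 2 and that of Rplp2 without fl/fl replicate 1.

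Around the exit tunnel, 2 of 8 genes rose, Rpl17 and Rpl35, and the median log2 fold change was 0.11, beside 20.7% called higher and a median of -0.11 over abundant genes. This list was put together after the values were known. Rpl17 was called in 7 of 13 alternatives. Rpl35 was called in 3 of 13 and stood at -0.0054 with the GC content offset. Rpl17 had 390 and 387 CPM in KO libraries, against 349 and 341 CPM in fl/fl libraries. Rpl23a, which docks the signal recognition particle at the tunnel exit, had 413 and 396 CPM in KO libraries, against 429 and 417 CPM in fl/fl libraries, a log2 fold change of -0.06 ± 0.05 (adjusted p = 0.482). An antisense gene, Tlcd1, overlaps 59.7% of the exon length of Rpl23a in M21, and with the strand setting of the counting not given in the sources used here the reads cannot be told apart. Antisense genes overlap 20 of the 88 members, Rpl35 among them, with Wdr38 over 66.2% of its exon length.

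Rps27a and Rps10 were called on values that 1 library or few reads decide. Rps27a, which encodes ubiquitin fused to a small subunit protein and was singled out after its values were seen, had 131 and 331 CPM in KO libraries, against 138 and 103 CPM in fl/fl libraries, a log2 fold change of 0.94 ± 0.27 (adjusted p = 0.0232). The genotypes overlapped, KO 2 alone was high, and without KO replicate 2 the log2 fold change was 0.11 (adjusted p = 0.413). Rps10, a small subunit protein, had 0 and 2 counts in KO libraries, against 15 and 12 in fl/fl libraries. The ratio of KO to fl/fl counts, scaled to library size, was 0.0743, with an exact 95% interval of 0.0086 to 0.296 that covers counting error only, and the adjusted p was 0.0418. Rps10 passed the filter through its fl/fl libraries alone. A readthrough gene, RPS10-NUDT3, covers 20.6% of its exon length on the same strand in M21, and counting of this kind leaves reads in such a stretch unassigned. The part of this overlap in the low counts of Rps10 was not tested. These counts are far below those of any other small subunit main form, and the level of Rps10 mRNA cannot be read from them.

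The 7 genes that were not tested had between 0 and 8 counts in any library. Rpl10l and Rpl39l, known from testis, had 0 counts in all 4 libraries, which allows up to 3 counts per library, or 0.416 to 0.444 CPM. Rpl3l, known from striated muscle, had 0 and 2 counts in KO libraries, against 2 and 0 in fl/fl libraries. Rps3a3, Rps12l1 and Rpl32l are processed pseudogenes in M21, and Rps12l1 had 7 and 2 counts in KO libraries, against 1 and 1 in fl/fl libraries. The main form Rpl24 had 2 and 0 counts in KO libraries, against 1 and 4 in fl/fl libraries, and a gene of the same strand, Gm28037, covers 47.0% of its exon length in M21. Rpl13a is covered by Gm45713 over 29.4% and was likewise low, with 8.004 and 11.5 CPM in KO libraries, against 7.50 and 7.11 CPM in fl/fl libraries, a log2 fold change of 0.41 ± 0.33 (adjusted p = 0.445). With Rpl38, at 0.26 ± 0.12 (adjusted p = 0.161), and Rpl7l1, it had the largest change among genes not called. The part of the overlaps in the low counts of Rpl24 and Rpl13a was not tested.

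The genes mutated in Diamond-Blackfan anaemia held both called and uncalled members. Of 19 in the list, 6 were called higher (Rps26, Rpl35a, Rpl15, Rpl35, Rpl18 and Rps27), Rps10 was called lower on few reads, and 12 were not called, with a median log2 fold change of 0.14. In percent, 31.6% of this list were called higher, against 40.7% of all 81 tested members and 20.7% of abundant genes. Rps19, the gene most often affected in patients, had 355 and 344 CPM in KO libraries, against 314 and 322 CPM in fl/fl libraries, a log2 fold change of 0.14 ± 0.06 (adjusted p = 0.116). Its genotypes did not overlap, but with the GC content offset the log2 fold change was -0.12. Rpl5 and Rpl11, which bind 5S rRNA and together restrain Mdm2, had log2 fold changes of 0.09 ± 0.05 (adjusted p = 0.248) and 0.16 ± 0.06 (adjusted p = 0.106). Rpl11 had 323 and 293 CPM in KO libraries, against 279 and 273 CPM in fl/fl libraries, and Rpl5 had 516 and 505 CPM in KO libraries, against 491 and 467 CPM in fl/fl libraries. In both genes KO lay above fl/fl.

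Rps26, a protein of the mRNA exit channel, had 513 and 485 CPM in KO libraries, against 433 and 443 CPM in fl/fl libraries, a log2 fold change of 0.19 ± 0.05 (adjusted p = 0.0218). Rpl18 had 424 and 411 CPM in KO libraries, against 361 and 311 CPM in fl/fl libraries, at 0.31 ± 0.07 (adjusted p = 0.0035). Rpl15, a large subunit core protein, had 309 and 284 CPM in KO libraries, against 259 and 256 CPM in fl/fl libraries, at 0.20 ± 0.06 (adjusted p = 0.0381). None of these overlapped between genotypes. The calls of Rpl18, Rpl15 and Rpl35 were lost with the GC content offset, at log2 fold changes of 0.081, 0.085 and -0.0054, and those of Rps26 and Rpl15 when any 1 of KO replicate 1, fl/fl replicate 1 and fl/fl replicate 2 was left out. Rps24 stood just outside the threshold, with 435 and 462 CPM in KO libraries, against 400 and 403 CPM in fl/fl libraries, at 0.16 ± 0.05 (adjusted p = 0.0525). Rpl27 had 169 and 156 CPM in KO libraries, against 170 and 158 CPM in fl/fl libraries, at -0.01 ± 0.08, and its genotypes overlapped. Rps7, Rps28, Rps29, Rpl26, Rpl31 and Rps15a had log2 fold changes between 0.06 and 0.18 and were not called.

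The subunits were compared by gene and by summed counts. Of 48 tested large subunit genes, 21 (43.8%) were called higher and 0 lower, with a median log2 fold change of 0.17. Of 33 tested small subunit genes, 12 (36.4%) were called higher and 1 lower, with a median of 0.16. Over all genes with at least 100 CPM, 20.7% were called higher and 38.7% lower, with a median of -0.11. Over the other genes at that level with a transcript under 1000 bases, 43% were called higher and 18.6% lower, with a median of 0.13. Large subunit genes held 1.85% and 1.84% of counts in KO libraries, against 1.63% and 1.57% in fl/fl libraries. Small subunit genes held 1.21% and 1.22% in KO libraries, against 1.06% and 1.02% in fl/fl libraries. The ratio of large to small subunit counts was 1.53 and 1.51 in KO libraries, against 1.54 and 1.54 in fl/fl libraries. On the log2 scale the difference was -0.02, with an exact two-sided permutation p of 0.333. Without Rps27a, left out after its values were seen, the ratio was 1.55 and 1.55 in KO libraries, against 1.56 and 1.55 in fl/fl libraries, a log2 difference of -0.01. With 2 libraries a genotype this permutation test can give no p below 0.333, so it cannot tell a small shift between the subunits from none.

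**Figure D2:**
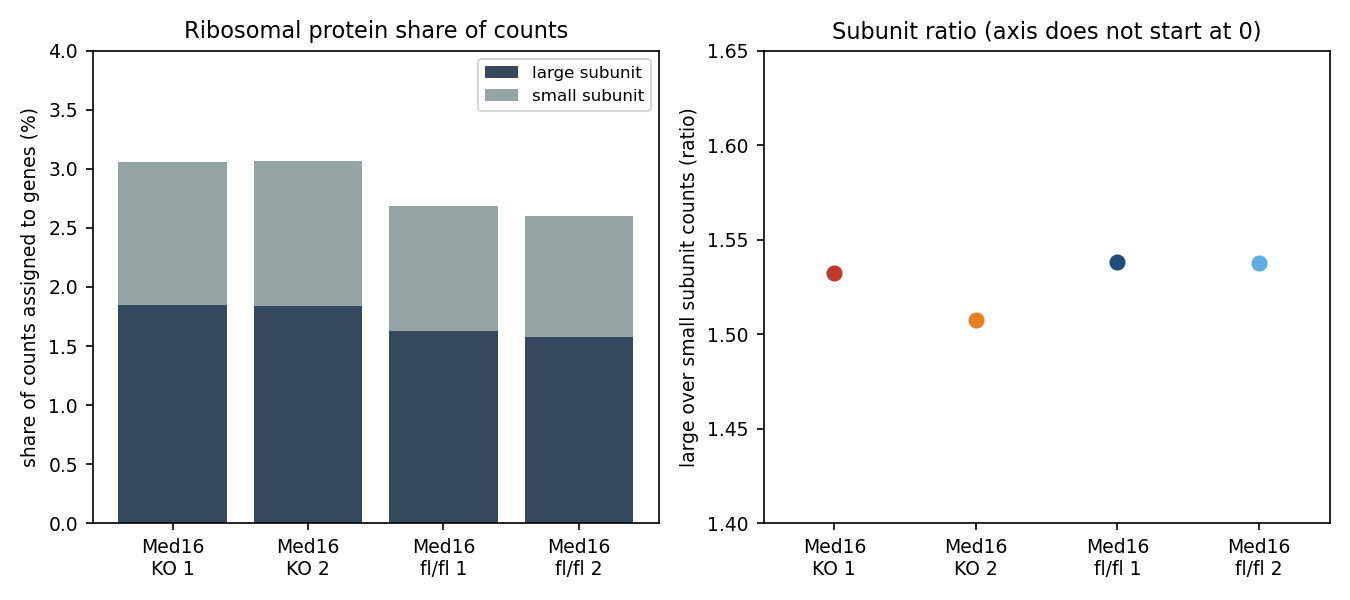
The left panel stacks the shares of counts (%) of large and small subunit genes in each library, KO libraries first, and the right panel plots the ratio of large to small subunit counts on an axis that does not start at 0. Both KO stacks reach 3.06%, above 2.68% and 2.60% in fl/fl libraries, while the ratio spans only 1.51 to 1.54.

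Of the 12 paralogs and numbered copies, 6 were tested and 1, Rps4l, was called. Set against their main forms, Rps4l counts were 1.83% and 1.19% of Rps4x counts in KO libraries, against 0.533% and 0.539% in fl/fl libraries, a log2 difference of 1.46 with an exact two-sided permutation p of 0.333. Rps4x itself had 575 and 631 CPM in KO libraries, against 558 and 565 CPM in fl/fl libraries, and was not called (adjusted p = 0.207). Rps27l, a p53 target, stood at 22.2% and 22.0% of Rps27 in KO libraries, against 25.4% and 23.8% in fl/fl libraries, a log2 difference of -0.15 (exact permutation p = 0.333). Rpl7l1 stood at 6.94% and 6.65% of Rpl7 in KO libraries, against 8.42% and 7.65% in fl/fl libraries, a difference of -0.24 (exact permutation p = 0.333). These ratios did not overlap between genotypes, and those of Rps27l and Rpl7l1 were lower in KO cells in value. By their own level, Rps27l had a log2 fold change of 0.19 ± 0.16 (adjusted p = 0.465) and Rpl7l1 one of -0.25 ± 0.14 (adjusted p = 0.253), while Rps27 itself was called higher.

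Rpl22l1, the paralog of Rpl22, stood at 43.2% and 30.2% of its main form in KO libraries, against 40.7% and 41.3% in fl/fl libraries, a log2 difference of -0.18 (exact permutation p = 1). The KO libraries lay on either side of the fl/fl ones, and without KO replicate 2 the difference was 0.07. Rpl6l, a processed pseudogene in M21, stood at 7.35% and 7.34% of Rpl6 in KO libraries, against 7.93% and 5.92% in fl/fl libraries, a difference of 0.10 (exact permutation p = 1), which turned to -0.11 without fl/fl replicate 2. Rps3a2, a further pseudogene, had at most 2.90 CPM in any library. Pseudogenes named with -ps symbols, 310 in all and outside the rule, held 0.0965% and 0.0954% of counts in KO libraries, against 0.0792% and 0.0852% in fl/fl libraries. Ribosomal protein genes have many such near-identical copies, and 24.3% and 23.6% of KO reads, against 26.4% and 25.3% of fl/fl reads, aligned to more than 1 place and were not counted. Their part in the levels above was not tested.

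**Figure D3:**
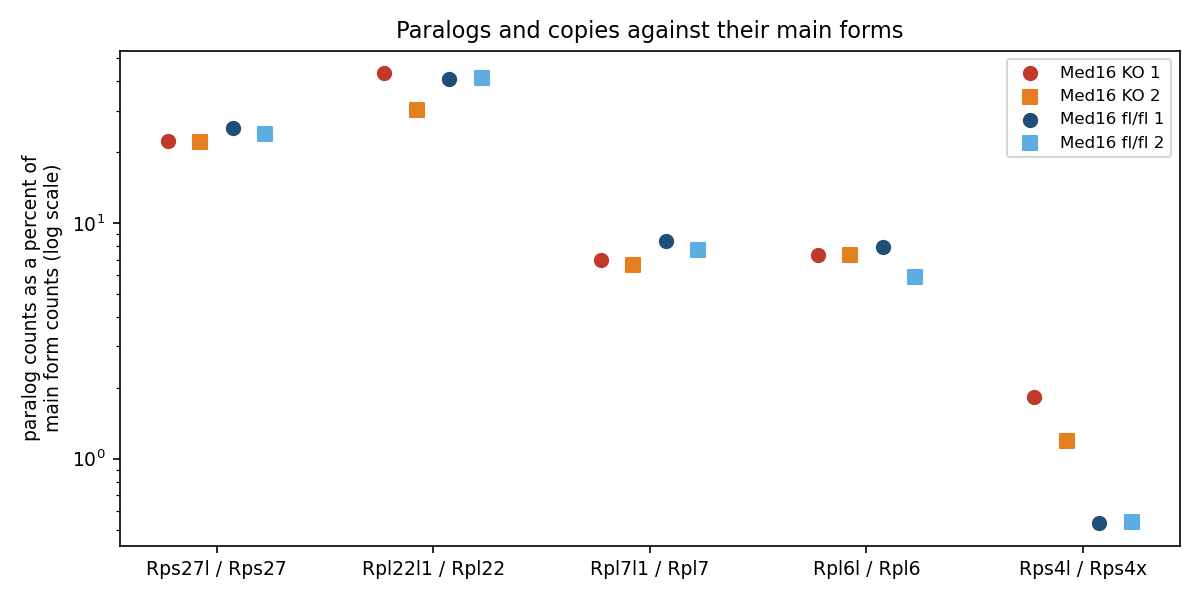
Counts of each paralog or copy are given as a percent of the counts of its main form on a log axis, 1 point per library, with KO libraries (red and orange) left of fl/fl libraries (blue). Rps4l over Rps4x is the pair with the widest gap between genotypes, at 1.83% and 1.19% in KO against 0.533% and 0.539% in fl/fl.

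Transcript length and base composition went along with the change. Principal transcripts of the 73 main forms with at least 200 counts in every library had a median of 761 bases and 51.6% GC, against 2627 bases and 50.2% GC over 12844 tested genes. Among other genes with a mean of at least 100 CPM and a transcript under 1000 bases, 86 in number, 43% were called higher and 18.6% lower, with a median log2 fold change of 0.13. In the same class, 24 of 50 ribosomal protein genes were called higher and 0 lower, with a median of 0.18. Between 1000 and 2000 bases, 8 of 18 ribosomal protein genes were called higher, with a median of 0.13, against 25.5% of 314 other genes called higher and 32.2% lower, with a median of -0.0047. Across the 73 main forms, which share the same libraries, the log2 fold change correlated with log2 length at r = -0.22 and rho = -0.24, and with GC content at r = 0.29 and rho = 0.44. Over 1673 genes of at least 100 CPM the values were r = -0.31 and rho = -0.32 for length, and r = 0.38 and rho = 0.42 for GC content. Over all 13052 genes tested, 1109 were called higher as reported, 988 with a length offset and 761 with a GC content offset. With a length offset 20 ribosomal protein genes were called higher, and Rpl4 joined Rps10 as lower. With a GC content offset 22 were called higher, of which 17 were among the 33, and those lost were Rpl8, Rpl10a, Rpl13, Rpl14, Rpl15, Rpl18, Rpl34, Rpl35, Rpl36, Rpl41, the 3 stalk genes, Rps2, Rps15 and Rps18. The medians were then 0.11 and 0.12 on the log2 scale.

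**Figure D4:**
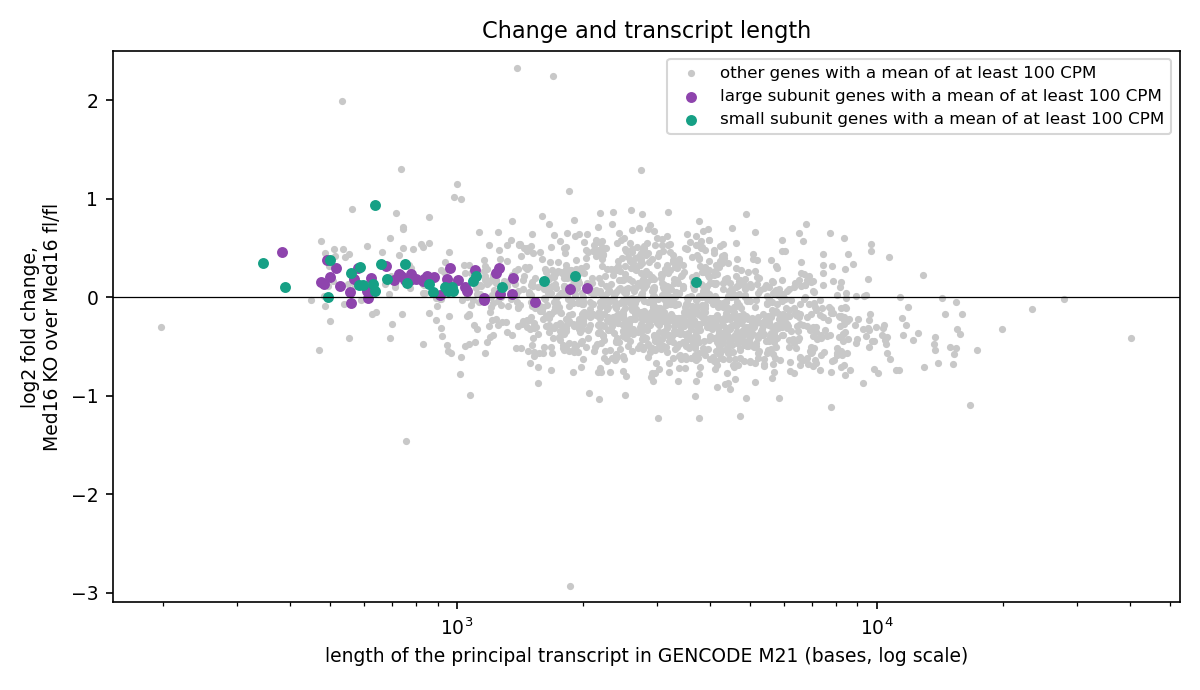
The log2 fold change of Med16 KO over Med16 fl/fl is plotted against the length of the principal transcript (bases, log axis) for genes with a mean of at least 100 CPM, with large subunit genes in purple, small subunit genes in green and all other genes in grey. Of the 70 ribosomal protein genes at this level, 50 have a transcript under 1000 bases. Most of the 70 sit a little above 0, while other genes spread downward as length grows.

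Ribosomal proteins whose symbols fall outside the rule, and other parts of the translation apparatus, changed in few members. Rack1, a small subunit scaffold for signalling proteins, rose, with 852 and 826 CPM in KO libraries, against 726 and 723 CPM in fl/fl libraries, a log2 fold change of 0.21 ± 0.04 (adjusted p = 0.0026). Rpsa and Fau were not called, at log2 fold changes of 0.09 and 0.16, and Rpl36al was not tested. Of 16 other mRNAs known to carry a TOP tract, 4 rose (Eef2, Eif3f, Tpt1 and Eef1g) and 1, the poly(A) binding protein gene Pabpc1, fell, with a median of 0.08. In percent, 25% of this list were called higher and 6.25% lower, against 20.7% and 38.7% of abundant genes. The share that rose was thus close to the background, while the share that fell was smaller. Fold changes were positive in 13 of the 16, and the median over abundant genes was -0.11. Eef2, the translocation factor that works at the stalk, had 2317 and 2359 CPM in KO libraries, against 2018 and 1988 CPM in fl/fl libraries, a log2 fold change of 0.22 ± 0.03 (adjusted p = 0.000153). Pabpc1 had 3437 and 3388 CPM in KO libraries, against 3844 and 3844 CPM in fl/fl libraries, at -0.17 ± 0.03 (adjusted p = 0.000451). The call of Eef2 was lost with the GC content offset, at a log2 fold change of 0.02, and that of Rack1 with the length offset, at 0.12.

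Among 14 genes that regulate TOP mRNAs, 2 rose and 2 fell, with a median of 0.04. Over all genes tested 8.5% were called higher and 9.89% lower, with a median of 0.02, and these shares also stand beside the counts of the chaperone and rescue lists that follow. Tsc2, an inhibitor of mTOR signalling, had 76.5 and 60.8 CPM in KO libraries, against 49.97 and 42.5 CPM in fl/fl libraries, at 0.57 ± 0.14 (adjusted p = 0.0104). Rps6kb1, the kinase of Rps6, had 35.8 and 32.5 CPM in KO libraries, against 43.5 and 52.3 CPM in fl/fl libraries, at -0.49 ± 0.16 (adjusted p = 0.0401). Its own values under the alternatives are not given here. The other genes called were Eif4ebp2, a brake on initiation, at 0.30, and Larp4b, an mRNA binding protein, at -0.30. Of 10 chaperones and assembly partners of single ribosomal proteins, 2 rose, with a median of 0.46. Pdcd2l had 14.6 and 13.7 CPM in KO libraries, against 7.22 and 5.80 CPM in fl/fl libraries, at 1.12 ± 0.30 (adjusted p = 0.0156), and Rrs1, which in yeast brings Rpl5, Rpl11 and 5S rRNA into the precursor, had 20.9 and 30.3 CPM in KO libraries, against 13.7 and 14.9 CPM in fl/fl libraries, at 0.84 ± 0.23 (adjusted p = 0.0198). Of 7 genes of ribosome rescue and recycling 2 fell, with a median of -0.22: Ascc3, a helicase that takes apart collided ribosomes, at -0.52 ± 0.13 (adjusted p = 0.0102), and Hbs1l, the partner of Pelo in rescue of stalled ribosomes, at -0.35 ± 0.12 (adjusted p = 0.0454). Without fl/fl replicate 2 the calls of Tsc2, Eif4ebp2, Larp4b, Pdcd2l, Rrs1, Ascc3 and Hbs1l were all lost.

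Mitochondrial ribosomal protein genes, which serve a separate ribosome, had a median log2 fold change close to that of the cytosolic ones, at 0.18 over 76 tested of 78, but a far lower summed level. Mrps11, Mrps34 and Mrps35, all of the small subunit, were called higher and 0 genes were called lower. That is 3.95% called higher, against 8.5% of all genes tested. Together the family held 0.161% and 0.166% of counts in KO libraries, against 0.145% and 0.142% in fl/fl libraries. The log2 ratio of cytosolic to mitochondrial ribosomal protein counts was 4.25 and 4.21 in KO libraries, against 4.21 and 4.20 in fl/fl libraries, a difference of 0.02 (exact two-sided permutation p = 0.667).

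**Figure D5:**
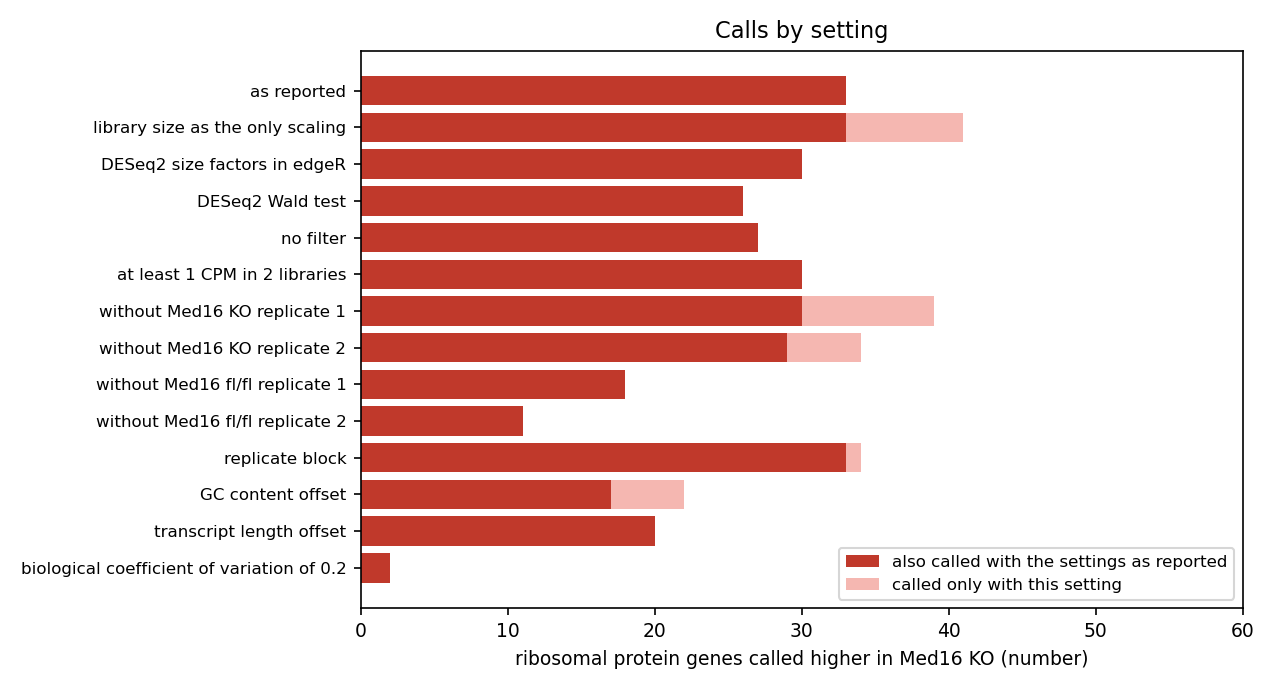
Bars give the number of cytosolic ribosomal protein genes called higher in Med16 KO with each way of processing, dark where the gene is among the 33 called as reported and pale where it is not. The number was 33 as reported and between 20 and 41 with the other settings that use all 4 libraries and estimate the spread from the data. It was lower without either fl/fl replicate, and 2 with an assumed coefficient of variation of 0.2. Over all genes tested, 1109 were called higher as reported and 331 with that coefficient.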

How the data were processed

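Poly(A) RNA of Ter119+ bone marrow cells was sequenced by the authors. The deposited values are whole-number read counts per gene, made with FastQC 0.11.7, HISAT2 2.1.0 and HTSeq 0.12.4 on build GRCm39, per the submitters' processing notes. Neither the annotation release nor the strand setting is stated there. The 5 rows that name no gene held 67.3% to 67.7% of reads and were left out. The main test was that of edgeR 4.0.16 in R 4.3.3 (filterByExpr, TMM, quasi-likelihood test, genotype as the only term, Benjamini-Hochberg adjustment over 13052 genes). The SE is the log2 fold change divided by the square root of F. The common biological coefficient of variation was 0.125. DESeq2 1.42.0 was an alternative. Exact permutation tests (scipy 1.17.1) were two-sided. GENCODE M21 (GRCm38) gave gene type, transcript length, GC content and overlaps, and, since the counts use another build, no coordinates come from them. The procedure was tested on simulated data.

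Members and lists were chosen with earlier results of these data known. Named genes were Med16; members called lower; the 10 largest rises without overlap; the 5 of highest mean CPM; tested paralogs with their main forms; the anaemia and stalk genes; the 3 largest changes not called; and, from other lists, the 3 smallest adjusted p and the highest level. Values of a few genes are not reported here. Heatr3, Aamp, Nemf and Abce1, also taken by this rule, were not called. Alternatives were other scalings and filters, each library left out, the replicate number as a block, GC content and length offsets, and a fixed coefficient of variation; leaving out Rps27a was chosen after seeing the data.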

Additional observations from a re-analysis of the deposited data

How the results depend on the processing

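The number of ribosomal protein genes called higher, 33, stayed within 1.5 times of that under other scalings, filters, DESeq2 (26) and the GC content offset (22), but was 20 with the length offset, 2 with a coefficient of variation of 0.2 and 11 to 39 when 1 library was left out. The 1 call lower was 0 with DESeq2, which gave Rps10 and Rps4l no adjusted p, 0 without a filter, 0 with at least 1 CPM in 2 libraries, 2 with the length offset and 0 to 2 with a library left out. The median log2 fold change over all members, 0.17, was 0.22 with library size only, 0.13 without a filter, 0.12 with the GC offset, 0.11 with the length offset and 0.13 to 0.17 with a library left out. For the large subunit these were 0.23, 0.15, 0.11, 0.11 and 0.13 to 0.18. For the small subunit they were 0.21, 0.13, 0.15, 0.086 and 0.14 to 0.16, and 0.15 with at least 1 CPM in 2 libraries. Mitochondrial ribosomal proteins called higher, 3, were 1 with DESeq2, 1 with the GC offset, 0 with the fixed coefficient and 0 to 10 with a library left out, and those called lower, 0, were then 0 to 3. In the other translation lists, 9 calls higher became 4 to 10 with a library left out and 1 with the fixed coefficient. The 5 lower became 3 with library size only, 3 with DESeq2, 3 with the GC offset, 1 to 7 with a library left out and 0 with the fixed coefficient. With a library left out, the log2 difference of Rpl22l1 to Rpl22 was -0.44 to 0.074, above 0 without KO replicate 2, and that of Rpl6l to Rpl6 was -0.11 to 0.31, below 0 without fl/fl replicate 2. Of 789 values for 61 named genes under alternatives, 648 kept direction and call, 94 kept direction and lost the call, 19 gained one and 28 changed direction. On the log2 scale, those are, with the GC offset, Rpl35 at -0.0054, Rplp1 at -0.0050, Rps19 at -0.12, Fau at -0.070, Aamp at -0.13, Rpl4 at 0.0060, Rpl7 at 0.094, Rpl22l1 at 0.17 and Abce1 at 0.068. With library size only, they are Rpl4 at 0.0036, Rpl7 at 0.043, Rpl22l1 at 0.029 and Rpl27 at 0.044. With the length offset, they are Aamp at -0.0025, Rpl6 at -0.053, Rps3a1 at -0.013 and Rps7 at -0.012. With a library left out, values ran from -0.039 to 0.16 for Aamp, -0.18 to 0.086 for Rpl22l1, -0.083 to 0.033 for Rpl27, -0.0097 to 0.049 for Rpl6, -0.060 to 0.30 for Rpl6l, -0.081 to 0.030 for Rpl7, -0.0065 to 0.12 for Rps15a, -0.062 to 0.26 for Rps29 and -0.35 to 1.19 for Rps3a2. Of these genes only Rpl35 and Rplp1 were called as reported. The cause of these changes was not tested. Replicate numbers do not pair the libraries (correlation of same-numbered deviations -0.0102), and a fit with the replicate number as a block called 34 higher, the 33 among them, and 1 lower. With 2 libraries a genotype and at most 7216333 counts each, genes of few counts such as Rps10 and Rpl24 are beyond reach.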
